A study of Homo sapiens with 4 samples.

Results

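The Hermansky-Pudlak and Chediak-Higashi genes examined here are 10 genes of organelle biogenesis: HPS1, HPS3, HPS4, HPS5, HPS6, AP3B1, AP3D1, DTNBP1, BLOC1S3 and LYST, out of 19974 protein-coding genes. They were chosen by name, with earlier results of these data known. Every ChIP-seq peak summit whose deposited nearest gene was one of them was taken, at any distance. That gave 32 of the 32479 summits in replicate 1 and 40 of the 40494 in replicate 2. The cells were 501mel, an established human melanoma line, and the protein bound to DNA was TBX3, a T-box transcription factor carrying a triple HA peptide tag. The 2 ChIP samples were precipitated with an anti-HA antibody (clone 12CA5), and 2 input samples were not analysed here, so no background level could be set beside a peak. The labels do not say how the tagged protein was introduced, nor whether the replicates came from separate cultures. The lists measure binding and not expression, so the melanocytic identity of the line could not be checked against marker levels. The depth of both libraries is unknown.

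Melanosomes belong to the lysosome-related organelles, which borrow the sorting machinery of endosomes and lysosomes to receive pigment enzymes. BLOC-1, BLOC-2, BLOC-3 and the AP-3 adaptor are the protein complexes that carry this cargo, and inherited loss of their subunits causes Hermansky-Pudlak syndrome, with albinism and a bleeding tendency from missing platelet dense granules. LYST is a very large cytosolic protein whose loss causes Chediak-Higashi syndrome, with giant melanosomes and lysosomes. Melanocytes are among the cells most visibly affected in both disorders.

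The promoter letters of these genes are shown because TBX3 and the melanocyte factor MITF have known preferred sequences. RefSeq promoter windows of GRCh38.p14, running from 250 bases before to 50 bases after a start site, matched 7 of the 10 genes with 13 windows. HPS1, AP3B1 and AP3D1 had no window. Both strands were searched for the T-box half-site AGGTGTGA, for its core GGTGTG, which lies within the half-site, and for the E-box letters CACGTG and CATGTG that MITF can bind. No window of the 7 genes held the T-box half-site or its core, which 1.21% and 19.8% of the 27305 genes in the table held in at least 1 window. CACGTG was found at HPS3, HPS5 and BLOC1S3, 3 of 7 genes, against 8.77% of the 27305 genes. CATGTG was found at LYST, HPS4 and BLOC1S3, also 3 of 7, against 13.4% of the 27305. At LYST the window of the start at 235866906 held no match, nor at HPS4 did those at 26483783 and 26483863. The promoter table has more genes than the 19974 protein-coding ones used elsewhere. It holds 35116 windows for 27305 genes, against 13 windows for these 7 genes, so the number of windows per gene differs. Of all windows, 7.26% held CACGTG and 11.1% held CATGTG. At HPS4 and at LYST the same CATGTG lay in overlapping windows, so the shares above were counted by gene. The shares are therefore not like for like. These matches are descriptions of letters and not measured sites. The E-boxes, in capitals within 30 bases each, read as follows, and LYST is shown over 245 bases because it was the only promoter among the 7 genes with a summit inside its window.
HPS3 (chr3:149129596-149129625, plus strand): ccggctggcgttCACGTGacccggcgtcat
HPS5 (chr11:18322238-18322267, minus strand): ggcgtgactcgtCACGTGatgaggaagtgc
BLOC1S3 (chr19:45178685-45178714, plus strand): gccgggcgaatcCACGTGacttggccgcta
BLOC1S3 (chr19:45178612-45178641, plus strand): ggttcctccattCATGTGactcttctgcac
HPS4 (chr22:26479660-26479689, minus strand): agcgtatcagacCATGTGgttgtatagtta
LYST (chr1:235883714-235883958, minus strand): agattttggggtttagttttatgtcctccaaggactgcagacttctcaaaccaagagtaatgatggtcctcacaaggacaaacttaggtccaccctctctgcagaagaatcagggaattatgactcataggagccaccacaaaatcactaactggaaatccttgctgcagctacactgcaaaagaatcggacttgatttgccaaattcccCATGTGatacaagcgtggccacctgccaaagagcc

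Summits named for these genes were mostly distal, as over the whole lists, and most of them were named for DTNBP1, HPS1 and LYST. Replicate 1 summits of the 10 genes had a median distance to the start site named of 45309.5 bp, against 50211 bp for all its peaks. For replicate 2 these medians were 61980 bp against 49952.5 bp, so the direction of the difference changed between the lists. A replicate 1 and a replicate 2 summit no more than 200 bp apart, each the closest to the other, are called a shared region. Of the 10 genes, 6 had a shared region at any distance: DTNBP1 had 10, HPS1 had 6, LYST had 5, and HPS4, HPS5 and BLOC1S3 had 1 each. Of all protein-coding genes, 28.6% had one, and the median number of shared regions was 1 over the 10 genes and 0 over all protein-coding genes. At least as many as DTNBP1 were held by 0.456% of protein-coding genes, at least as many as HPS1 by 1.62%, and at least as many as LYST by 2.69%. Counts at any distance were not set against the length of sequence nearest to each gene, which differs between genes. None of the regions of DTNBP1, HPS1 and LYST lay inside the span of the gene named. HPS3 had a summit in replicate 2 alone, and HPS6, AP3B1 and AP3D1 had none in either list. A gene of the list was therefore named in replicate 1 for 6 of 10 genes and in replicate 2 for 7 of 10, beside 34.1% and 38.4% of protein-coding genes.

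**Figure D1:**
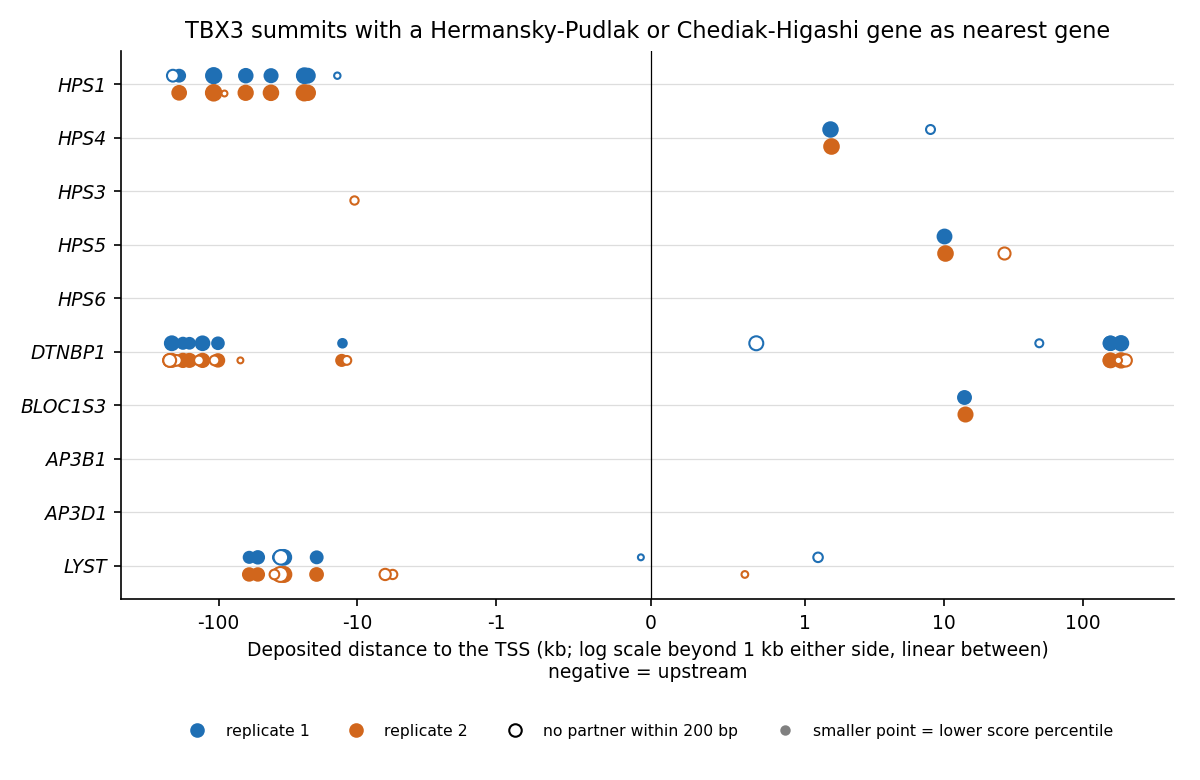
Deposited distance of every summit to the transcription start site (TSS) of the gene named, in kb, for the 10 genes, with replicate 1 in blue and replicate 2 in orange. Filled points are paired within 200 bp, open points are not, and point area grows with the score percentile. The filled points lie beyond 10 kb except at HPS4, and most lie upstream at HPS1, DTNBP1 and LYST.

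Close to start sites the count was near that of protein-coding genes at large. A transcription start site (TSS) with a shared region no farther than 10 kb was found for HPS4 only, 1 of 10 genes beside 10.1% of all protein-coding genes. Within 1 kb there was none, beside 2.99%. Within 50 kb, 6 of 10 genes had one, beside 22.9%. Just outside the 10 kb limit lay HPS5 at 10118 bp, DTNBP1 at 12814 bp and BLOC1S3 at 14103 bp. With replicate 1 alone the count within 10 kb was 3, from HPS4, DTNBP1 and LYST, beside 13.4% of protein-coding genes. With replicate 2 alone it was 2, from HPS4 and LYST, beside 15.5%, so the count depended on asking for both replicates. Of the 24 shared regions, 18 lay upstream of the TSS named and 6 downstream. All 18 belonged to DTNBP1, HPS1 and LYST. The upstream share of all shared regions was not computed, so this count has nothing to be set beside.

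HPS1 and HPS4 form BLOC-3, the exchange factor that activates the small GTPases RAB32 and RAB38 on maturing melanosomes. HPS4 (chromosome 22, 26443109 to 26483863 in GRCh38.p14) had the shared region nearest to a start site among the 10 genes. It lay in intron 1 of 14, where the replicate 1 summit was 26482355 and the replicate 2 summit 26482323, 1508 and 1540 bp downstream of the TSS. The deposited score was 36.4 in replicate 1, above 79.6% of that list, and 49.8 in replicate 2, above 81.5% of that list. The 2 libraries thus placed it at nearly the same standing. A weaker summit in replicate 1, at 26471659 in intron 6 of 14 with a score of 5.96, had no replicate 2 summit closer than 10664 bp.

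HPS1 (chromosome 10, 98413948 to 98446935) had no summit inside its span in either list, and the 6 shared regions named for it lay 22767 to 192182 bp upstream in replicate 1. All 6 fell inside the introns of the neighbouring gene HPSE2, which encodes heparanase 2. The start sites of HPSE2 itself were farther away, at 596707 to 766122 bp, so the naming of HPS1 rests on distance alone. The strongest region had summits at 98555426 and 98555381 in intron 9 of 12, 108463 bp upstream, with scores of 68.9 in replicate 1 and 131.1 in replicate 2. It stood above 89.7% and 94.0% of the lists and was the highest-scoring region of all 10 genes in both.

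The HPS1 regions nearest to the gene came as a close pair. The nearest had summits at 98469730 and 98469737, with scores of 26.6 in replicate 1 and 41.8 in replicate 2. The next lay 1358 bp farther on in replicate 1, at 98471088 and 98471118, with scores of 45.5 and 94.6, above 83.7% and 90.7% of the lists. Scores of the 6 regions ran from 12.4 to 68.9 in replicate 1 and from 28.0 to 131.1 in replicate 2, and all 6 stood at a higher percentile in replicate 2. The 3 HPS1 summits without a partner scored 3.34 and 12.4 in replicate 1 and 2.06 in replicate 2.

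HPS3, HPS5 and HPS6 form BLOC-2, which directs tubular carriers from endosomes to melanosomes. HPS5 (chromosome 11, 18278670 to 18322174) had a shared region in intron 1 of 21, with summits at 18312056 and 18312041, 10118 and 10133 bp downstream of the TSS. It scored 25.7 in replicate 1 and 48.8 in replicate 2, above 71.3% and 81.3% of the lists. This region lay inside the gene, as at HPS4 and in the same intron number. A second summit at 18295093, in exon 13 of 22, appeared in replicate 2 alone with a score of 14.8.

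The other BLOC-2 genes had no shared region. HPS3 (chromosome 3, 149129638 to 149173732) was named once, in replicate 2, for an intergenic summit at 149118945 that lay 10639 bp upstream and scored 5.35, above 15.8% of the list. The closest replicate 1 summit to it was 61281 bp away. HPS6 (chromosome 10, 102065349 to 102068036), a gene with a span of 2688 bp, had its nearest summit 49967 bp from its span in replicate 1 and 49986 bp in replicate 2. Those summits were a shared region named for LDB1.

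DTNBP1 encodes dysbindin and BLOC1S3 a further subunit of BLOC-1, which moves cargo such as TYRP1 out of early endosomes. DTNBP1 (chromosome 6, 15522807 to 15663058) had the most regions, 10 over 415.3 kb, and none of them lay inside its own span. On its downstream side 3 regions fell in introns 5, 8 and 9 of 17 of JARID2, which encodes a Polycomb-associated protein, at 157938 to 189053 bp from the DTNBP1 TSS. They were 225150 to 256265 bp from the nearest JARID2 start site. On its upstream side 7 regions lay 12814 to 226224 bp from the TSS, in sequence where the RefSeq gene table lists no gene.

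The strongest DTNBP1 region by rank was in JARID2, with both summits at base 15474005, scores of 35.2 and 40.8, and standings above 78.6% and 77.8% of the lists. It was the only region of the 10 genes with its summits at the same base. The region nearest to the DTNBP1 TSS had summits at 15675872 and 15676030, with scores of 5.76 and 10.6, above 17.3% of replicate 1 and 40.0% of replicate 2. The region farthest upstream differed most between the libraries, with summits at 15889282 and 15889419 and scores of 2.80 and 15.6, above 1.15% of replicate 1 and 53.0% of replicate 2. Across the 10 regions scores ran from 2.80 to 35.2 in replicate 1 and from 10.6 to 40.8 in replicate 2.

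At the DTNBP1 start site itself the replicates did not match. Replicate 1 had a summit at 15662373, in a CpG island in intron 1 and 685 bp downstream of the TSS, with a score of 28.0. That score stood above 73.8% of its list, in the eighth of 10 score classes, where 94.6% of all replicate 1 peaks had a partner. The nearest replicate 2 summit was 12604 bp away. A second summit inside the gene, at 15614311 in intron 6 of 8, was also seen in replicate 1 alone and scored 5.12, so replicate 2 had no summit within DTNBP1. Replicate 2 had 8 DTNBP1 summits of its own, 7 of them more than 60 kb from the TSS.

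BLOC1S3 (chromosome 19, 45178784 to 45217083) had a single shared region and no other summit. Its summits at 45192848 and 45192868 were 14103 and 14123 bp downstream of the TSS. The scores were 17.5 in replicate 1 and 34.0 in replicate 2, above 60.0% and 74.1% of the lists. The deposited annotation called this intergenic sequence within repeats, a LINE in replicate 1 and an Alu in replicate 2, although the RefSeq span of the gene covers it.

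AP3B1 and AP3D1 encode the large beta and delta subunits of AP-3, which sorts tyrosinase and other cargo into melanosome-bound vesicles. Neither was named for a summit. AP3B1 (chromosome 5, 78000522 to 78294698) nevertheless held 1 shared region, with summits at 78005266 and 78005231 in intron 26 of 26 and scores of 15.8 and 11.4. The deposited nearest gene there was the non-coding LOC101929154. AP3D1 (chromosome 19, 2100988 to 2164616) stood in the emptiest surroundings of the 10 genes, its nearest summit being 203221 bp from its span in replicate 1 and 203220 bp in replicate 2.

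LYST (chromosome 1, 235661031 to 235883713) had 5 shared regions within 40.5 kb, all upstream of the gene. Their replicate 1 summits were 19649 to 60104 bp from the TSS, in sequence that the deposited annotation called intergenic and that lies within the spans of the non-coding genes LOC105373215 and, for 4 of the regions, LINC02768. The median spacing was 11107 bp, against 38183 bp between neighbouring shared regions over the genome. The genome value includes gaps between regions named for different genes, which the LYST value cannot, so they are not like measures. Spacing was 21780 bp for the HPS1 regions and 30039 bp for the DTNBP1 regions, so the LYST regions were the most densely set.

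The strongest LYST region had summits at 235917605 and 235917592, 33897 and 33884 bp upstream, with scores of 45.1 in replicate 1 and 72.0 in replicate 2. It stood above 83.4% and 87.3% of the lists. It opened a group of 3 summits within 3204 bp in replicate 1 and 3201 bp in replicate 2. The last of the 3, at 235920809 and 235920793, was also shared and scored 8.81 and 16.8. The middle ones were strong in both libraries but missed the pairing distance: replicate 1 had a summit at 235919308 with a score of 41.0, and replicate 2 had one 300 bp away at 235919608 with a score of 66.5. Allowing 500 bp made them a pair and raised the regions of the 10 genes from 24 to 25.

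Summits at the LYST start sites were weak and did not recur. In replicate 1 a summit at 235883771 was annotated to the promoter, 63 bp upstream of the TSS, with a score of 2.11 that was above 0.105% of the list. It fell within the LYST sequence printed above, 23 bp from the CATGTG at 235883743 to 235883748. Another replicate 1 summit, at 235882464, scored 7.12 and lay 1244 bp downstream. In replicate 2 the nearest was at 235883097, 611 bp downstream, with a score of 3.46. Both replicates therefore placed low-scoring summits around this start site, but none came closer than 633 bp to one in the other list. Replicate 2 alone also had summits 5573 and 6311 bp upstream of the other LYST start site, with scores of 6.91 and 11.4.

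Recurrence of the summits near these genes was close to that of other peaks of like score. In replicate 1, 24 of 32 had a partner, 75.0% (95% Wilson interval 57.9% to 86.7%, counting error only), beside 69.9% of all peaks and 74.1% when all peaks were weighted to the same score deciles. In replicate 2, 24 of 40 had one, 60.0% (44.6% to 73.7%), beside 56.1% of all peaks and 62.0% at the same deciles. Summits of neighbouring regions share their locus, so these intervals treat as independent what may not be. The 8 unpaired summits of replicate 1 had a median score of 6.54 and the 24 paired ones 18.9. In replicate 2 the 16 unpaired summits had a median of 7.62 and the paired ones 26.0. Paired summits lay a median of 31 bp apart, against 28 bp for all 22702 shared regions, and at most 158 bp apart.

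**Figure D2:**
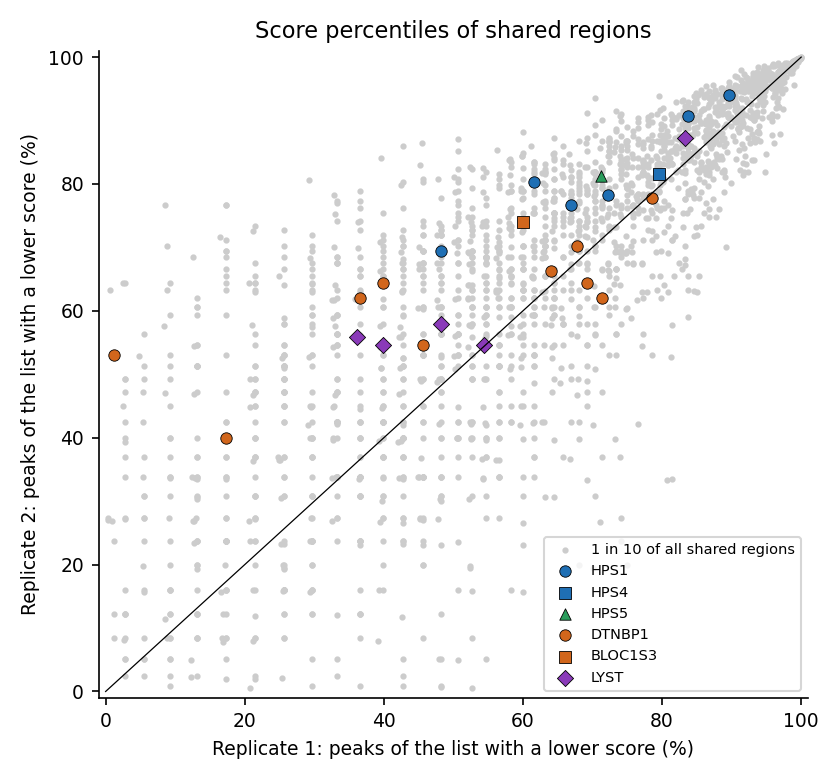
Percent of peaks in the same list with a lower score, replicate 1 on the horizontal and replicate 2 on the vertical axis, for the 24 shared regions of the 6 genes (coloured) and 1 in 10 of all shared regions (grey). The line marks equal standing. Of the coloured points 21 lie above it, and 2 stand above 90% in replicate 2, both of HPS1.

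The regions were of middling strength. The median percentile of the 24 shared regions was 62.8% in replicate 1 and 67.8% in replicate 2, beside 63.1% and 70.3% for all shared regions. No summit of the 10 genes was in the highest score decile of replicate 1, and 2 were in replicate 2, both at HPS1. In replicate 2, 21 of the 24 regions stood at a higher percentile than in replicate 1 (87.5%), while 67.1% of all shared regions did. The median change was 9.36 percentage points for the 24 regions and 3.70 for all. The regions come from 6 loci in 1 pair of libraries, so no test was attached.

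Nearly all summits near these genes were intergenic or intronic, as in the lists as a whole, and repeats held a smaller share of them than of all peaks, a difference that was not tested. In replicate 1, 14 of 32 summits were annotated intergenic, 17 intronic and 1 promoter, where all peaks were 53.3% intergenic and 39.4% intronic. In replicate 2, 22 of 40 were intergenic, 17 intronic and 1 exonic, where all peaks were 52.8% intergenic and 40.7% intronic. Repeats held 7 of 32 summits in replicate 1 (21.9%) and 11 of 40 in replicate 2 (27.5%), beside 43.3% of all peaks in either list. None of the summits lay in a satellite, and without satellite peaks the share of all peaks in repeats was 33.0% in replicate 1 and 34.0% in replicate 2. Inside the RefSeq spans, 4 of the 10 genes held a shared region (HPS4, HPS5, BLOC1S3 and AP3B1), beside 20.9% of all protein-coding genes.

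The other genes of this trafficking machinery were counted in 6 lists of 46 genes. The lists were drawn up with earlier results of these data known, and the counts were not tested. Shared regions no farther than 10 kb from a TSS were found for 7 of the 46 genes (15.2%), beside 10.1% of all protein-coding genes. They were BLOC1S1 of 6 further BLOC-1 genes, AP1G1 of 8 AP-1 adaptor genes, VPS33B, VPS41 and TGFBRAP1 of 10 genes of the HOPS, CORVET and CHEVI tethering complexes, and RAB38 and PI4K2A of 9 genes of the RAB32 and RAB38 pathway and cargo fusion. None of 5 further AP-3 genes and none of 8 BEACH-domain relatives of LYST had one. At any distance 19 of the 46 had a shared region (AP3M2 among the AP-3 genes, and NBEA and NSMAF among the BEACH genes), beside 28.6% of protein-coding genes. With replicate 1 alone the count within 10 kb was 11, beside 13.4% of protein-coding genes.

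**Figure D3:**
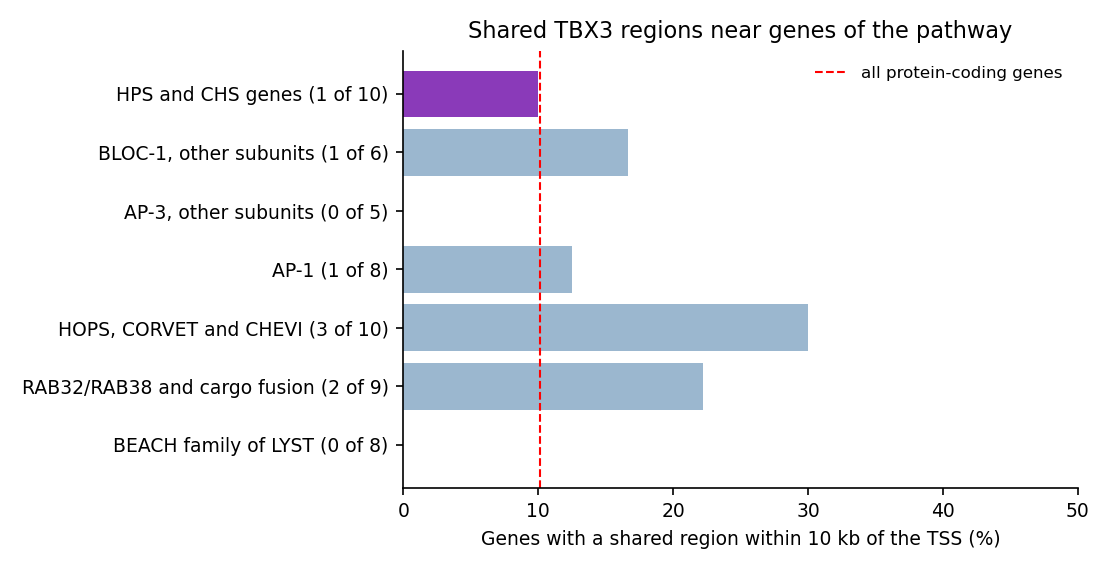
Percent of genes in each list that have a shared region no farther than 10 kb from a TSS, with the numbers of genes in parentheses, for the 10 Hermansky-Pudlak (HPS) and Chediak-Higashi (CHS) genes in purple and 6 lists of related genes in pale blue. The dashed line is the 10.1% of all protein-coding genes, which the purple bar meets at 1 of 10.

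The closest of these regions to a start site was at RAB38, the GTPase that BLOC-3 activates. Its summits at 88175270 and 88175254 on chromosome 11 lay in exon 1 of 3, 197 bp downstream of the TSS, with scores of 49.6 and 94.8. For RAB32, the other GTPase that BLOC-3 activates, the single shared region lay 253591 bp upstream of the TSS.

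The regions within 10 kb at the other 6 genes were these. AP1G1, the gamma subunit of AP-1, had summits 7629 bp upstream of the TSS on chromosome 16 (71816702 and 71816742), with scores of 42.6 and 96.0. BLOC1S1 had summits in intron 2 of 3 on chromosome 12 (55718192 and 55718258), 1900 bp downstream, with scores of 27.5 and 54.7. These BLOC-1 and AP-1 regions stood above 73.2% and 82.4% of the replicate 1 list. VPS33B, a tethering protein, had summits in intron 1 of 22 on chromosome 15 (91018002 and 91017954), 4619 bp downstream, with scores of 26.1 and 55.5. PI4K2A, a lipid kinase that acts with BLOC-1 and AP-3, had summits in intron 1 of 8 on chromosome 10 (97649165 and 97649164), 8479 bp downstream, with scores of 31.0 and 29.0. The remaining genes had weaker or discordant regions. TGFBRAP1 had summits in an intron on chromosome 2 (105328768 and 105328900), the first 888 bp downstream of the TSS, and they stood above 61.3% of replicate 1 but 15.8% of replicate 2. VPS41 had summits in intron 1 of 28 on chromosome 7 (38902642 and 38902702), 6558 bp downstream, above only 0.785% and 4.74% of the lists.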

How the data were processed

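ChIP-seq of HA-tagged TBX3 was analysed from 1 peak list for each of 2 ChIP samples, and groups and replicate numbers came from the sample titles. Per the file headers, the authors annotated peak summits with HOMER annotatePeaks.pl against hg38, 1 list per sample. The deposited peak score has no stated scale and was used only as a value or rank within its list. Positions, distances to the TSS, nearest genes and repeats were also those deposited. The submitters' processing notes name FastQC 0.11.7, cutadapt 2.8, Bowtie2 2.3.5, MACS2 2.1.2 and SAMtools 1.9. The control and threshold of peak calling are not given in the sources used here, and the depth is unknown.

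Summits were paired as mutual nearest neighbours within 200 bp, and a shared region took the gene and distance of its replicate 1 summit. The pairing was run on simulated summits spaced more widely than some in these lists, so its handling of close summits was not tested. Gene spans and promoter sequences came from RefSeq tables of GRCh38.p14, the assembly that hg38 denotes. Genes were matched by symbol or gene identifier. Scripts ran in Python 3.11.15 with pandas 2.3.3 and scipy 1.17.1. Percentages of summits carry 95% Wilson intervals. There was no contrast between conditions, so no p-value was computed, and gene counts were set beside the share of all protein-coding genes. The 10 genes, the lists and the alternatives were chosen with earlier results of these data known. All 10 genes were named; genes with over 5 shared regions were given by the region with the lowest rank sum, the nearest to a TSS and the range, and of other genes those within 10 kb were named, the 5 with the lowest rank sum in full. The other regions described were chosen after their values were seen.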

Additional observations from a re-analysis of the deposited data

How the results depend on the processing

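Of 48 alternatives, 26 left a result within 1.5 times its value or inside its interval, and 22 moved it. The same base and the 5000 highest scores leave fewer pairs by construction. A limit of 50 bp or 1 kb can likewise only lower a count or keep it. A limit of 500 bp or 50 kb can only raise a count or keep it. Leaving out 1 replicate drops the pairing, so those counts cover all summits of the other list. For the remaining settings the cause was not tested. Genes with a shared region at any distance went from 6 to 1 at the same base and to 1 in the 5000 highest scores. Genes with a region within 10 kb went from 1 to 0 at the same base, 0 in the 5000 highest scores, 0 within 1 kb and 6 within 50 kb, and ranged from 2 to 3 with 1 replicate left out. Shared regions went from 24 to 1 at the same base, 1 in the 5000 highest scores and 4 inside gene spans. With 1 replicate left out the count was of summits and not of shared regions, 32 for replicate 1 alone and 40 for replicate 2 alone. The share of summits with a partner went from 75.0% to 3.12% at the same base, 56.2% within 50 bp and 100% in the 5000 highest scores in replicate 1 (1 of 1 summit), and from 60.0% to 2.5% at the same base in replicate 2. Other pathway genes within 10 kb went from 7 to 0 at the same base, 4 within 50 bp, 1 in the 5000 highest scores, 2 within 1 kb and 15 within 50 kb, and ranged from 10 to 11 with 1 replicate left out. Assigning regions by the replicate 2 summit could not be applied to the share with a partner. No paired analysis was possible because there was a single ChIP condition and no test between groups.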
